A study of Mus musculus with 4 samples.

Results

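The genes described here encode the respiratory chain, the set of protein complexes in the inner mitochondrial membrane that carries electrons to oxygen, and the ATP synthase that uses the resulting proton gradient. They were chosen by symbol: every gene in the deposited count matrix whose name starts with mt-, Nduf, Sdh, Uqcr, Cox4, Cox5, Cox6, Cox7, Cox8 or Atp5. This gave 107 of the 13978 genes. Of these, 13 are encoded in mitochondrial DNA (mtDNA), 82 are nuclear genes for subunits and 12 are nuclear genes for assembly factors, 8 of complex I and 4 of complex II. The nuclear subunit genes comprise 7 core and 30 accessory subunits of complex I, 4 of complex II, 8 of complex III, 16 of complex IV and 17 of complex V.

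The cells were host bone marrow progenitors of Wt CD45.1 mice, profiled as single cells in droplets (10x Genomics Chromium, 3' chemistry version 3). In the tumor environment group, the mice had been given 150000 tumor cells in the tail vein 3 weeks earlier. These cells came from the lymph node of a single leukemic Cd45.2+/+ Ebf1+/- Pax5+/- mouse (LN768), so the group models 1 B-cell acute lymphoblastic leukemia. In the PBS control group, the mice had been given PBS. In both groups the sort kept KIT+ Lin- CD45.2- CD45.1+ marrow cells, which leaves out the CD45.2+ leukemia cells. The age and sex of the mice are not in the labels used here. The labels name 2 samples per group, but each cell carries only a group prefix (pbs or tm, the second taken to mean tumor environment). Each group was therefore 1 pooled sample, and no difference below has a replicate check or a test. All intervals are 95% intervals that cover counting error only, and any difference between the libraries that is not due to the leukemia cannot be told apart from it.

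Complexes I, III, IV and V are mosaics of subunits made from both genomes, while complex II is encoded by nuclear genes alone. The mtDNA genes are transcribed inside the organelle as long precursors from each strand, which are cut into single messengers, and the nuclear genes are transcribed one by one and their proteins imported. Long-term hematopoietic stem cells (HSCs) are known for relying little on respiration while quiescent, and differentiation and cycling are known to raise its use.

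Each group had 5882 cells, with 68391214 unique molecular identifiers (UMIs, each standing for 1 captured transcript) in the PBS control and 76059014 in the tumor environment. The median was 10189 and 10458 UMIs per cell, and 190 cells of the tumor environment lay below the shallowest control cell, which had 3070. Of all barcodes, 18 occurred in both groups. Kit, the receptor used in the sort, had a UMI in 92.9% of control cells and 79.1% of tumor environment cells, at 370 and 206 CPM (UMIs scaled to a common library size). The part of this difference in the results was not tested. Among markers of cells that the sort should remove, the 5 T and NK cell markers in the matrix summed to 339 CPM in the control and 269 CPM in the tumor environment. The 4 B cell markers summed to 134 and 147 CPM, and the 10 macrophage markers to 38.4 and 26.4 CPM, with Adgre1 at 1.27 and 0.766 CPM. Nkg7 of the T and NK cell list is also used below as a multipotent progenitor marker. Ighm of the B cell list is also a lymphoid-primed marker. These sums can therefore include transcripts of progenitors. Cells were grouped on the authors' map into 10 types named after marker genes. The mixture differed: there were 567 HSC-like cells among control cells against 1539 in the tumor environment, and 705 against 165 erythroid-like cells. Values over all cells therefore combine expression and mixture, and values within types are given for the sums and for the genes described in most detail. The make-up of a type can differ between the groups too. Within HSC-like cells the 10 multipotent progenitor markers summed to 4429 CPM in the control and 2440 CPM in the tumor environment. The 15 HSC markers summed to 1835 and 2378 CPM there. The part of this in the values within types was not tested.

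Transcripts of the 13 mtDNA genes took up a larger share of UMIs in the tumor environment, and transcripts of the nuclear subunit genes a smaller one. The mtDNA genes summed to 3.56% of UMIs in the PBS control and 5.14% in the tumor environment, a log2 fold of 0.49 (0.49 to 0.50) after scaling by trimmed mean of M values (TMM), or 1.41-fold. The 82 nuclear subunit genes summed to 3.997% and 3.40% of UMIs, a log2 fold of -0.27, or 1.204-fold lower. For complexes I, III, IV and V together, the mtDNA to nuclear UMI ratio was 0.906 in the control and 1.54 in the tumor environment, a log2 change of 0.77 (0.76 to 0.77). The direction differed between the genomes within each of these 4 complexes. The ratio went from 0.675 to 1.02 for complex I, from 0.973 to 1.82 for complex III, from 1.62 to 2.98 for complex IV and from 0.490 to 0.766 for complex V.

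Most nuclear genes differed by a little and in the same direction. A filter required an average of 10 CPM or more and 20 UMIs or more over both groups, which 105 of the 107 genes passed, all but Cox6a2 and Cox7a1. A gene was counted as higher or lower when its level differed by at least 1.2-fold. Of the 8781 genes of the matrix that passed, 13.2% were higher and 14.2% were lower by that measure, and their median log2 fold was -0.02. Of the 13 mtDNA genes, 8 were higher and 2 were lower, with a median of 0.34. Of the 80 nuclear subunit genes that passed, 39 were lower and 1 was higher, with a median of -0.25. A fold below 0 was found for 76 of the 80, against 53.3% of all genes that passed. The 1 higher gene, Cox4i2, passed the filter only through its level in the tumor environment. Between the quartiles the nuclear folds ran from -0.35 to -0.15. The interval lay below 0 for 74 genes, above 0 for 3 and across 0 for 3.

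**Figure D1:**
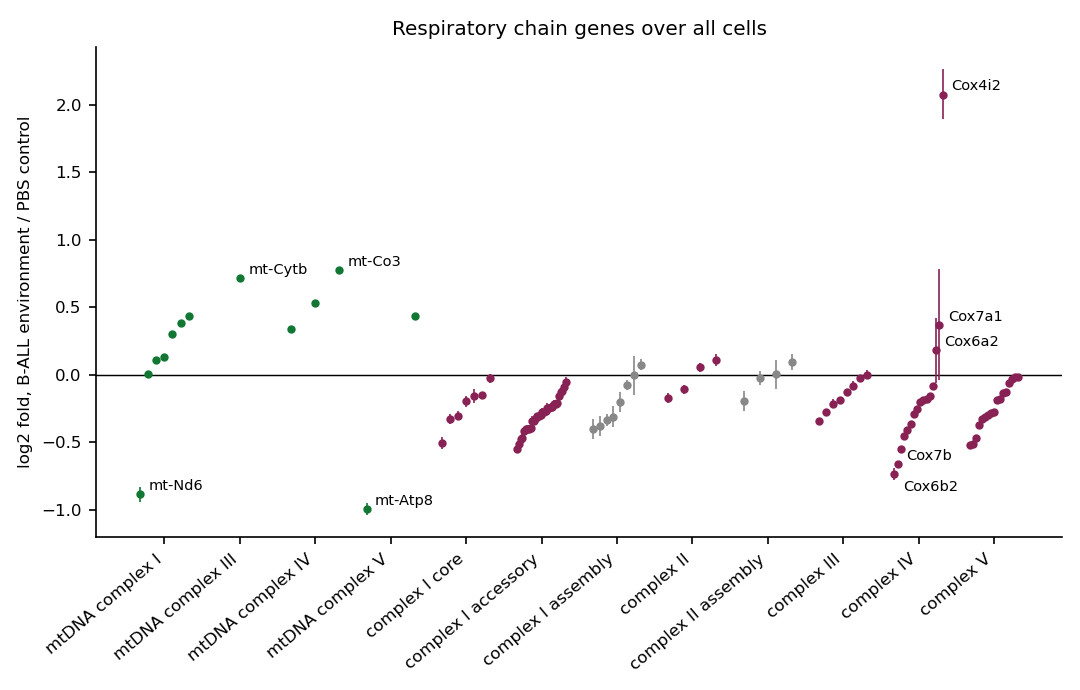
Log2 fold (tumor environment over PBS control) of respiratory chain genes over all cells, by complex and genome. Each point is 1 gene, and a line marks 0. The mtDNA genes spread from -0.99 to 0.77, and the nuclear subunits lie mostly just below 0, with Cox4i2 alone at 2.08.

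The size of the nuclear difference depended on the cell mixture and on the scaling. With every cluster given equal weight in both groups, the median nuclear fold was -0.14 and 21 genes were lower by 1.2-fold. Scaling by the total of all UMIs outside the mtDNA genes, without TMM factors, gave a median of -0.19 and 25 genes. Weighting each cell equally also gave 25 genes. The share of all genes lower by 1.2-fold was not counted in these settings.

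The mtDNA genes differed in the size of their folds. They are described in the order of the molecule, with positions on chromosome M of the GRCm38 build (GENCODE vM21). CPM values of 3' libraries depend on how well each messenger's end is captured, so levels are compared between groups and not between genes. mt-Nd1 (chrM:2751-3707), a core subunit of the membrane arm of complex I, was at 2200 CPM in the control and 2716 CPM in the tumor environment, a log2 fold of 0.30. mt-Nd2 (chrM:3914-4951), of the same arm, was at 1377 and 1798 CPM, a fold of 0.38. mt-Co1 (chrM:5328-6872), the catalytic subunit of complex IV that holds the site of oxygen reduction, was at 6894 and 8734 CPM, a fold of 0.34. All of these were moderately higher.

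mt-Co2 (chrM:7013-7696), which takes electrons from cytochrome c, was at 5194 and 7524 CPM, a fold of 0.53. mt-Atp6 (chrM:7927-8607), the subunit of the proton channel of ATP synthase, was at 6273 and 8492 CPM, a fold of 0.44. mt-Co3 (chrM:8607-9390), the third mtDNA subunit of complex IV, was at 5833 and 9971 CPM, a fold of 0.77 (0.77 to 0.78). It had the highest fold of the 13, ahead of mt-Cytb (chrM:14145-15288), the subunit of complex III that oxidizes quinol, at 3853 and 6325 CPM, a fold of 0.71.

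Of the other complex I genes on the plus strand, mt-Nd4 had a larger fold than the rest. mt-Nd4 (chrM:10167-11544) was at 2373 and 3218 CPM, a fold of 0.44. mt-Nd3 (chrM:9459-9806) was at 606 and 666 CPM, a fold of 0.14, and mt-Nd4l (chrM:9877-10173) was at 416 and 450 CPM, a fold of 0.11. mt-Nd5 (chrM:11742-13565) was at 739 and 743 CPM, a fold of 0.01 (-0.01 to 0.03). As sums per complex, the mtDNA genes had folds of 0.30 for complex I, 0.71 for complex III, 0.55 for complex IV and 0.41 for complex V.

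Only mt-Atp8 and mt-Nd6 were lower over all cells. mt-Atp8 (chrM:7766-7969), a small subunit of ATP synthase, was at 174 and 87.6 CPM, a fold of -0.99 (-1.04 to -0.95). mt-Nd6 (chrM:13552-14070), a complex I subunit and the only one of the 13 on the minus strand, was at 98.1 and 53.1 CPM, a fold of -0.88 (-0.94 to -0.83). Both had the fewest UMIs of the 13, mt-Atp8 with 11770 and 6742 and mt-Nd6 with 6626 and 4091. Both also share bases with a neighbor: mt-Atp8 shares 43 with mt-Atp6, and mt-Nd6 shares 14 with mt-Nd5 on the other strand. mt-Nd4l and mt-Nd4 share 7 bases, and mt-Atp6 and mt-Co3 share 1. How reads of shared bases or of the opposite strand were counted is not given in the sources used here, so the counts of these genes are uncertain.

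The same pattern was present within the 10 named types. The summed mtDNA level was higher in the tumor environment in each of them, from a log2 fold of 0.32 in the neutrophil progenitor-like and monocyte progenitor-like cells to 0.78 in the early erythroid-megakaryocyte-like cells. In the other types it was 0.45 in erythroid-like, 0.48 in early granulocyte-monocyte progenitor-like, 0.55 in megakaryocyte-like, 0.63 in lymphoid-primed-like, 0.63 in basophil and mast cell-like, 0.67 in multipotent progenitor-like and 0.71 in HSC-like cells. Of the 13 genes, 10 were higher in all 10 types, a count that was not made over all genes. mt-Nd5 was higher in 8, with folds of -0.13 in neutrophil progenitor-like and -0.11 in monocyte progenitor-like cells. mt-Atp8 was lower in all 10, from -1.08 in erythroid-like to -0.49 in early erythroid-megakaryocyte-like cells. mt-Nd6 was lower in all 10 as well, from -1.49 in monocyte progenitor-like to -0.49 in HSC-like cells.

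**Figure D2:**
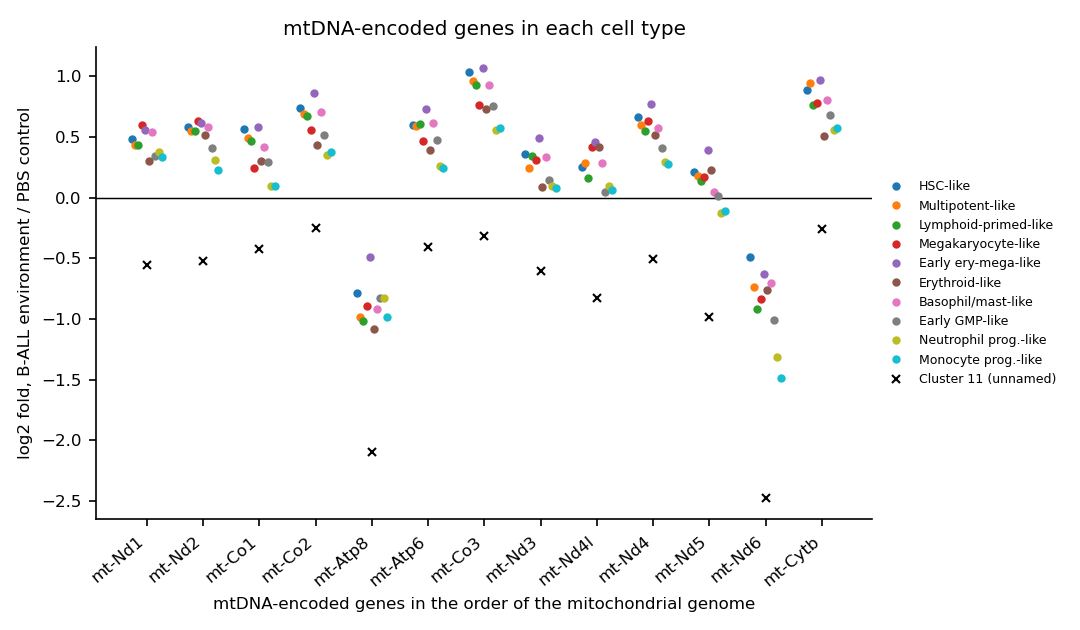
Log2 fold (tumor environment over PBS control) of the 13 mtDNA genes, in the order of the molecule, in each of the 10 named types. The values of mt-Co3 and mt-Cytb are high in every named type, and those of mt-Atp8 and mt-Nd6 are below 0 in every named type.

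Over single cells, the whole distribution of the mtDNA share was shifted. In the control the median cell had 3.42% of its UMIs from mtDNA genes (5th to 95th percentile 2.22% to 5.93%), and in the tumor environment 5.52% (3.06% to 8.33%). Cells with over 10% were few in both groups, 58 cells (0.986%) in the control and 51 cells (0.867%) in the tumor environment. Without them the summed mtDNA fold was 0.50. The median HSC-like cell had 3.71% in the control and 6.42% in the tumor environment.

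Depth, cycling and markers of RNA quality also differed with the groups or with the share. Within the control, the 1471 cells with 3070 to 6600 UMIs had a mtDNA to nuclear ratio of 1.26 and the 1471 cells with over 15372 UMIs had 0.799. In the same ranges of depth the tumor environment had 1.97 and 1.29, so the ratio was higher in the tumor environment at like depth. Among transcripts retained in the nucleus, Malat1 had 13311 and 10559 CPM, a log2 fold of -0.33, and Neat1 had 91.3 and 44.8 CPM, a fold of -1.03. Mki67, a marker of cycling cells, had 410 and 520 CPM, a fold of 0.34, and Top2a had 617 and 661 CPM. In cells without a UMI of either cycling gene (1168 control and 1670 tumor environment cells) the summed mtDNA fold was larger, at 0.80, and the ratio changed by 1.06. The part of RNA quality in these results was not tested.

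The nuclear subunits of complex I, which pass electrons from NADH to ubiquinone, were lower in nearly every case. Among the 7 core genes, 3 were lower by at least 1.2-fold and the median fold was -0.20. Ndufv1, which binds NADH, was at 124 CPM in the control and 87.4 CPM in the tumor environment, a fold of -0.50. Ndufv2, its partner in the same module, was at 241 and 195 CPM, a fold of -0.30. Ndufs7 (-0.15) and Ndufs8 (-0.03) had the highest folds of the core. Of the 30 accessory genes, all had a fold below 0 and 18 were lower by 1.2-fold, with a median of -0.29. Ndufa1 was at 261 and 178 CPM, a fold of -0.55. Ndufb1-ps was at 748 and 525 CPM, a fold of -0.51, and Ndufb2 at 301 and 216 CPM, a fold of -0.48. The highest accessory folds were those of Ndufv3 (-0.05) and Ndufc2 (-0.09).

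The factors that assemble complex I, which are not part of the finished enzyme, had folds on both sides of 0. Of 8 genes, 4 were lower by 1.2-fold, with a median of -0.26. Ndufaf3 was at 46.7 and 35.3 CPM, a fold of -0.40, Ndufaf6 at 47.6 and 36.5 CPM, a fold of -0.38, and Ndufaf2 at 119 and 94.3 CPM, a fold of -0.34. Ndufaf4 had a fold of 0.07 and Ndufaf5 of 0.00.

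Complex II, the succinate dehydrogenase that also serves the tricarboxylic acid cycle, had no gene beyond 1.2-fold in either direction over all cells. Sdha, the flavoprotein, was at 186 and 165 CPM, a fold of -0.17 (-0.21 to -0.14), and Sdhb, the iron-sulfur subunit, at 199 and 185 CPM, a fold of -0.11. The membrane anchors were slightly higher: Sdhc at 111 and 119 CPM, a fold of 0.11, and Sdhd at 176 and 183 CPM, a fold of 0.05. The summed fold was -0.04. Sdhc and Sdhd each had folds above 0 in 9 of the 10 named types, Sdhb in 5 and Sdha in 2. None of the 4 assembly factors of complex II passed 1.2-fold over all cells either. Within megakaryocyte-like cells, 2 of the 4 subunit genes were higher by 1.2-fold, where 1787 of 8719 genes were. The same number was higher in monocyte progenitor-like (1005 of 8241), neutrophil progenitor-like (1132 of 8195) and early erythroid-megakaryocyte-like cells (1840 of 8800). In lymphoid-primed-like cells 1 was higher (1717 of 8898). In HSC-like and multipotent progenitor-like cells 1 was lower and none higher.

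Complex III hands electrons from ubiquinol to cytochrome c. Of its 8 nuclear genes found by the symbol rule, 2 were lower by 1.2-fold, with a median of -0.16. Uqcr11 was at 675 and 533 CPM, a fold of -0.34, Uqcrh, the hinge protein, at 973 and 803 CPM, a fold of -0.28, and Uqcrc2, a core protein, at 217 and 187 CPM, a fold of -0.21. Over all cells Uqcrfs1, the Rieske iron-sulfur protein, was at 210 CPM in both groups, and Uqcrb had a fold of -0.03. Within the 10 named types Uqcrfs1 had a fold above 0 in 9, up to 0.40, with an interval above 0 in 4. Uqcrb had a fold above 0 in 4 types and below 0 in 6. The mtDNA partner of these genes, mt-Cytb, had a fold of 0.71.

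Complex IV, cytochrome c oxidase, had the lowest summed nuclear fold, -0.33, and 7 of its 14 genes that passed the filter were lower by 1.2-fold. Cox7b was at 657 and 416 CPM, a fold of -0.66 (-0.68 to -0.64), and was lower in all 10 types, from -0.81 in multipotent progenitor-like to -0.35 in monocyte progenitor-like cells. Cox7c was at 1222 and 834 CPM, a fold of -0.55. Cox7a2l, which takes part in joining complexes into supercomplexes, was at 516 and 486 CPM, a fold of -0.09. Ndufa4, first described as a complex I gene and now known as a subunit of complex IV, was at 1430 and 1045 CPM, a fold of -0.45.

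Complex V, the ATP synthase, had 9 of 17 nuclear genes lower by 1.2-fold, with a median of -0.28. Atp5h, subunit d of the stalk, was at 968 and 675 CPM, a fold of -0.52. Atp5o, which joins the stalk to the catalytic head, was at 538 and 376 CPM, a fold of -0.51, and Atp5k, subunit e, at 552 and 399 CPM, a fold of -0.47. Atp5d had a fold of -0.01. Subunit c, which forms the rotating ring, is encoded by 3 genes with near-identical mature proteins, and reads shared by them cannot be assigned with certainty. Atp5g1 was at 1094 and 891 CPM, a fold of -0.30, Atp5g2 at 1306 and 1294 CPM, a fold of -0.01, and Atp5g3 at 436 and 419 CPM, a fold of -0.06.

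Most nuclear subunit genes have short messengers, and other genes with short messengers had a median slightly below 0. Length was the median over a gene's annotated protein-coding transcripts. Of 975 other genes with a length under 800 bases, 18.8% were lower by 1.2-fold and the median fold was -0.06. Of the 48 nuclear subunit genes of that length, 54.2% were lower and the median was -0.28. Between 800 and 1600 bases the medians were -0.03 for 2070 other genes and -0.20 for 25 nuclear subunit genes. From 1600 to 3200 bases they were -0.01 for 3066 other genes and -0.30 for 5 nuclear subunit genes.

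Promoter sequences were read for the nuclear genes, and a few are shown as examples. They include Cox7b, whose fold over all cells was among the lowest, but they were not taken in order of fold. Of the 94 nuclear genes, 79 matched an entry in the RefSeq promoter table (build GRCm38.p6), and none was found for Cox4i1, Cox4i2 or Sdhc. The 250 bases before the start were searched on both strands for CGCATGCG (a form of the NRF1 site, the same on both strands), CCGGAAG (an ETS family site, bound by GABP) and AAGATGGCG (a YY1 site). These factors are known regulators of nuclear respiratory genes. The sequences are given 5′ to 3′ on the gene's strand, with matches in capitals. Cox7b (chrX:106015450-106015699, plus strand), Ndufa4 (chr6:11907451-11907700, minus strand) and Atp5k (chr5:108434400-108434649, minus strand) are shown as genes that were lower, and Atp5j (chr16:84834977-84835226, minus strand), at a fold of -0.03, because it holds all 3 motifs.
Cox7b: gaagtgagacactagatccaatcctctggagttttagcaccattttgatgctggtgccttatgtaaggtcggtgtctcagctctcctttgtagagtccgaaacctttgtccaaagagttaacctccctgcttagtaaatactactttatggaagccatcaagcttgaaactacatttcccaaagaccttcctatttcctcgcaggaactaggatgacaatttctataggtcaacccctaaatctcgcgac
Ndufa4: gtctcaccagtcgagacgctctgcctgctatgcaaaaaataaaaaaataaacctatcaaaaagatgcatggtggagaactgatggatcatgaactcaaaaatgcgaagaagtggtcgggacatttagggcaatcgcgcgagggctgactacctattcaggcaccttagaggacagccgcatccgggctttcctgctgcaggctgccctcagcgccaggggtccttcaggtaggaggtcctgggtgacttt
Atp5k: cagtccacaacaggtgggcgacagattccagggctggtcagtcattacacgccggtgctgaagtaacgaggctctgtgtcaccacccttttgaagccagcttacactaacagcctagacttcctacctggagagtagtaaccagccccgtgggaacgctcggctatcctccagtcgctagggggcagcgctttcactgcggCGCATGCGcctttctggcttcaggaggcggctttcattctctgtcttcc
Atp5j: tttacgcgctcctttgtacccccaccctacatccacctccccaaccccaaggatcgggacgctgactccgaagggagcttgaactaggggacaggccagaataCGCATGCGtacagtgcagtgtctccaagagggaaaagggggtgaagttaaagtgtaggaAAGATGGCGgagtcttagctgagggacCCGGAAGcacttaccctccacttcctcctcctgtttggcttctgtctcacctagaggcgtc
Cox7b and Ndufa4 hold none of the 3 in this window, and Atp5k holds CGCATGCG. Cox7c, at a fold of -0.55, holds none, and Atp5h, at -0.52, holds CCGGAAG. Over all cells both had lower folds than Ndufa4 and Atp5k, and they are not shown.

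Across 73 promoters of 68 nuclear subunit genes, CGCATGCG was present in 7 (9.59%), against 3.57% of the 8993 promoters of genes that passed the filter and 1.55% of all 32851. CCGGAAG was present in 12 (16.4%), against 15.7% and 6.91%. AAGATGGCG was present in 1 (1.37%), against 1.39% and 0.606%. Among the 35 promoters of subunit genes lower by 1.2-fold, 2 held CGCATGCG and 6 held CCGGAAG. Among the other 38, 5 and 6 did.

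HSC-like cells were among the types with the larger changes of the mtDNA to nuclear ratio. They came from cluster 1, whose leading genes include the stem cell genes Hlf, Mecom and Ly6a beside the immune genes Ltb, Iigp1 and Gimap6, and cluster 8, whose leading genes include Hlf and Socs2 beside the mitotic genes Ccnb2, Aspm and Cenpf. Cluster 1 had 346 control and 1121 tumor environment cells and cluster 8 had 221 and 418. The mtDNA genes took up 3.83% of control UMIs and 6.41% of tumor environment UMIs, a log2 fold of 0.71, and the nuclear subunit genes to 3.49% and 2.87%, a fold of -0.32. The ratio was 1.11 and 2.28, a change of 1.03. Within the clusters, whose proportions differed between the groups, it changed by 0.96 in cluster 1 and 0.94 in cluster 8. The shift was of like size in both clusters: the mtDNA fold was 0.69 in cluster 1 and 0.71 in cluster 8, and the summed nuclear fold -0.27 and -0.23.

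In HSC-like cells 9 of the 13 mtDNA genes were higher by 1.2-fold and 2 were lower, where 18.9% of 9218 genes were higher and 18.1% lower. mt-Co3 was at 6341 CPM in the control and 12990 CPM in the tumor environment, a fold of 1.03 (1.02 to 1.05). mt-Cytb was at 4280 and 7900 CPM, a fold of 0.88, and mt-Co2 at 5656 and 9428 CPM, a fold of 0.74. mt-Nd4 (0.66), mt-Atp6 (0.60), mt-Nd2 (0.58) and mt-Co1 (0.56) followed, and mt-Atp8 (-0.79) and mt-Nd6 (-0.49) were lower. Of the 80 nuclear subunit genes that passed the filter there, 47 were lower by 1.2-fold, 1 (Cox4i2) was higher and the median was -0.29. Within cluster 1, 35 of 80 were lower, where 17.9% of all genes that passed were, and within cluster 8, 26 of 80, against 21%.

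Among nuclear genes that passed the filter, Ndufa4 had the lowest fold in HSC-like cells, at 1555 CPM in the control and 778 CPM in the tumor environment, a fold of -0.999 (-1.04 to -0.96). It was -0.95 in cluster 1 and -0.79 in cluster 8. The other types fell into an uneven order: -0.95 in multipotent progenitor-like, -0.69 in lymphoid-primed-like and between -0.45 and -0.05 in the remaining 7, with -0.05 in early erythroid-megakaryocyte-like cells. After Ndufa4 in HSC-like cells came Cox7b at -0.78, Ndufa1 at -0.64, Cox7c at -0.59, Atp5o at -0.58 and Atp5k at -0.56. At the other end, Cox4i2 had a fold of 3.17 (2.50 to 3.94), from 18 UMIs in the control and 486 in the tumor environment. Cox4i2 passed the filter there only through its level in the tumor environment. The next 3 were genes of complex II and its assembly, Sdhaf1 at 0.29 (0.09 to 0.49), Sdhc at 0.13 (-0.02 to 0.29) and Sdhaf4 at 0.10 (-0.07 to 0.27).

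The counts in HSC-like cells depended on how the cells were chosen. A gate of at least 3 UMIs summed over 7 HSC genes, chosen after seeing the data, took 910 control and 2588 tumor environment cells. In those the mtDNA fold was 0.55, the nuclear median -0.17 and the number of nuclear genes lower by 1.2-fold 22. In HSC-like cells without a UMI of Mki67 or Top2a (137 and 697 cells), the mtDNA fold was 0.82 and the nuclear median -0.20, with 31 genes lower. Scaling by the UMIs outside the mtDNA genes also left 31. The share of all genes lower by 1.2-fold was not counted in these settings, so the counts have no background beside them.

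**Figure D3:**
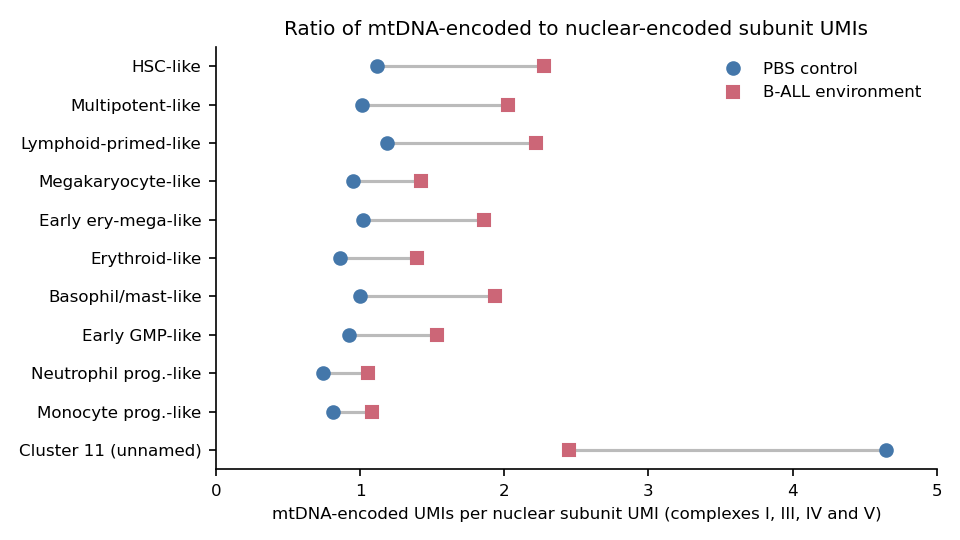
Ratio of mtDNA to nuclear UMIs of complexes I, III, IV and V in each type, for the PBS control and the tumor environment; each point is 1 pooled sample, with no replicate error. The tumor environment lies above the control in the 10 named types and below it in cluster 11. Among the named types the change is smallest in monocyte progenitor-like cells, at 0.808 and 1.08. It is largest in HSC-like cells, at 1.11 and 2.28.

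The change of the ratio differed in size across types. It was 1.03 in HSC-like cells pooled over both clusters (0.96 and 0.94 within them), 1.00 in multipotent progenitor-like, 0.95 in basophil and mast cell-like, 0.90 in lymphoid-primed-like and 0.87 in early erythroid-megakaryocyte-like cells. It was 0.73 in early granulocyte-monocyte progenitor-like, 0.70 in erythroid-like, 0.58 in megakaryocyte-like, 0.51 in neutrophil progenitor-like and 0.42 in monocyte progenitor-like cells. No test of these differences was possible with 1 sample per group.

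The nuclear part of the change was uneven across types. The summed nuclear fold was -0.33 in multipotent progenitor-like and -0.31 in basophil and mast cell-like cells, and -0.03 in megakaryocyte-like and -0.08 in early erythroid-megakaryocyte-like cells. Genes lower by 1.2-fold numbered 49 of 79 in basophil and mast cell-like cells, where 21.9% of all genes that passed were lower, and 46 of 80 in multipotent progenitor-like cells, against 17.7%. They numbered 39 of 80 in lymphoid-primed-like cells, against 18.8%, 30 of 80 in early granulocyte-monocyte progenitor-like cells, against 14.4%, 28 of 79 in neutrophil progenitor-like cells, against 13.1%, and 28 of 79 in erythroid-like cells, against 20.8%. In monocyte progenitor-like cells 11 of 80 were lower, against 12.2%. In early erythroid-megakaryocyte-like cells it was 14 of 79, against 22.2%, and in megakaryocyte-like cells 8 of 80, against 19.3%. In these last 3 types the share was near or below that of all genes, so the larger ratio there came with a higher mtDNA level and little change of the nuclear genes. Of the 79 nuclear subunit genes that passed the filter in all 10 types, 34 had folds below 0 in each type and 45 had folds on both sides of 0. The same count was not made over all genes, so the 34 have no background beside them, and the types share the same libraries.

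**Figure D4:**
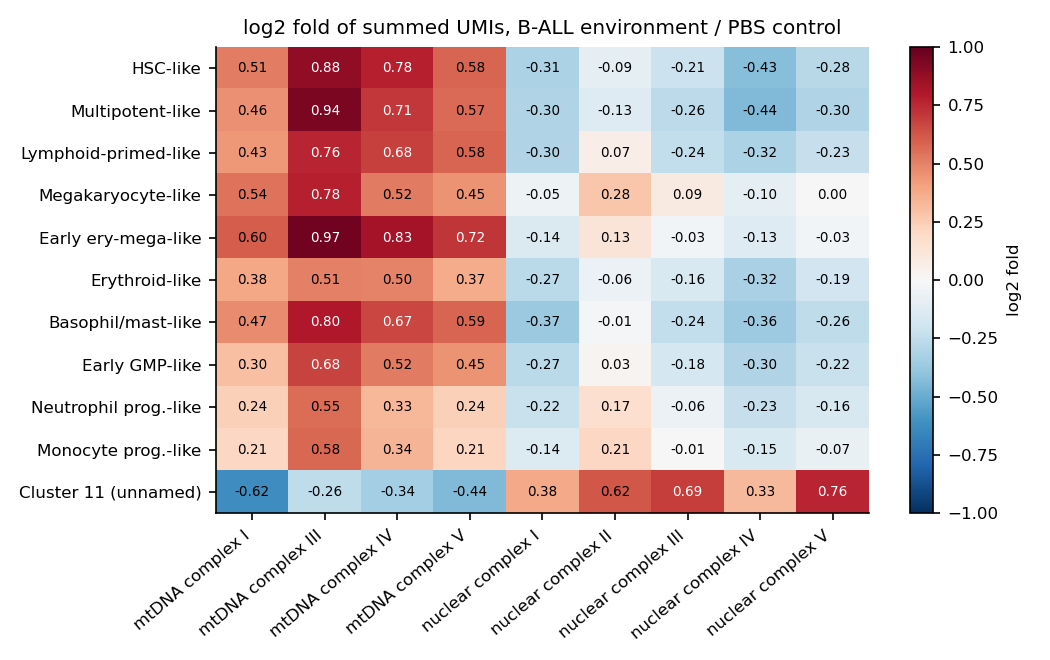
Log2 fold (tumor environment over PBS control) of the summed mtDNA and nuclear genes of each complex in each type. Nuclear complex IV is lowest in most named types, at -0.44 in multipotent progenitor-like cells, and complex II runs from -0.13 to 0.28 in the named types.

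Several complex IV subunits exist as alternative isoforms. Complex IV subunit 4 exists as Cox4i1, the general form, and Cox4i2, a form known from lung and from low oxygen. Cox4i1 was at 1370 and 1031 CPM over all cells, a fold of -0.41, and lower in all 10 types, between -0.47 and -0.23. Cox4i2 had 291 UMIs (4.31 CPM) in the control and 1400 UMIs (18.2 CPM) in the tumor environment, a fold of 2.08 (1.89 to 2.26). It passed the filter only through its level in the tumor environment. With equal weight for every cluster its fold was 1.81.

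On a CPM scale shared by all types, Cox4i2 was highest in HSC-like cells of the tumor environment, at 33.6 CPM (486 UMIs), against 3.67 CPM (18 UMIs) in the control. In megakaryocyte-like cells it was at 1.14 and 21.5 CPM, from 5 and 300 UMIs. In monocyte progenitor-like cells it was at 11.8 and 21.6 CPM, in multipotent progenitor-like cells at 7.11 and 20.02 CPM, and in early granulocyte-monocyte progenitor-like cells at 8.54 and 19.8 CPM. Neutrophil progenitor-like cells had 2.77 and 9.62 CPM and lymphoid-primed-like cells 2.74 and 8.30 CPM. Early erythroid-megakaryocyte-like cells had 4 and 14 UMIs, basophil and mast cell-like cells 4 and 4, and erythroid-like cells 1 and 2. The control was thus highest in monocyte progenitor-like cells and the tumor environment in HSC-like cells.

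A UMI of Cox4i2 was seen in 3.00% of HSC-like control cells and 22.3% of HSC-like tumor environment cells. After thinning each cell to 3000 UMIs, leaving out 59 shallower tumor environment cells, the shares were 0.882% and 9.26%. Erythroid-like cells, the type with the least Cox4i2, had a UMI in 0.142% and 1.21% of cells, and in none after thinning, at a median depth of 14930 and 16046 UMIs against 7577 and 7531 in HSC-like cells.

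**Figure D5:**
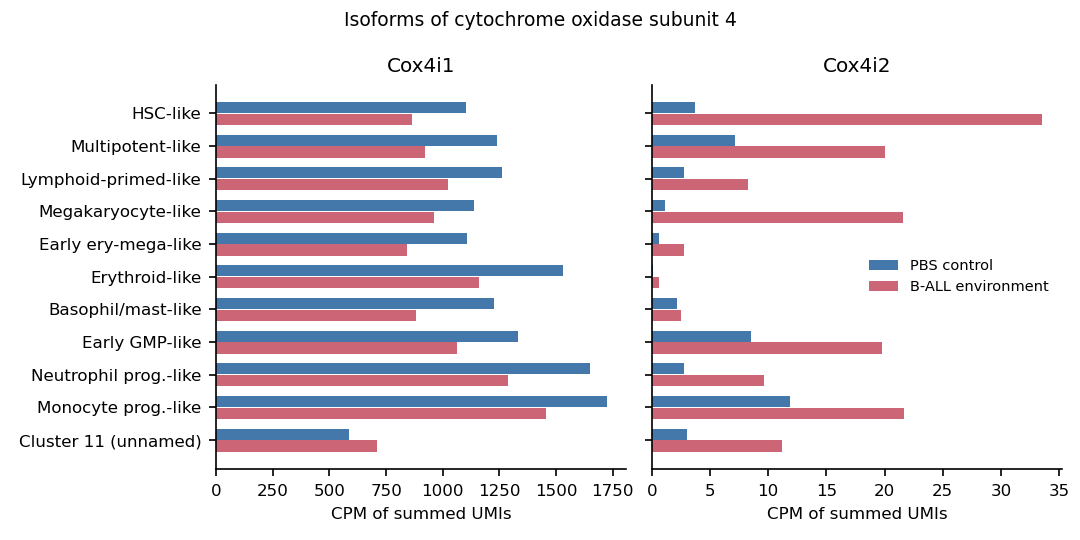
CPM of Cox4i1 and Cox4i2 in each type, for the PBS control and the tumor environment. Each value is from 1 pooled sample. Cox4i1 is a little lower in the tumor environment in every named type, and Cox4i2 differs most in HSC-like and megakaryocyte-like cells.

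Cox6b2, known as a testis form of subunit 6b, was at 154 and 92.3 CPM over all cells, a fold of -0.74 (-0.78 to -0.69), while Cox6b1, the general form, was at 704 and 590 CPM, a fold of -0.26. On the scale shared by types, Cox6b2 was highest in erythroid-like cells, at 394 CPM (4172 UMIs) in the control and 192 CPM (589 UMIs) in the tumor environment, a fold of -1.02 within that type. It had a fold of -0.60 in early erythroid-megakaryocyte-like and -0.52 in monocyte progenitor-like cells, but -0.10 in HSC-like and 0.02 in multipotent progenitor-like cells. With equal weight for every cluster the fold over all cells was -0.46.

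Cox6a2, known as a heart and muscle form, had 257 UMIs (3.80 CPM) in the control and 332 UMIs (4.31 CPM) in the tumor environment, a fold of 0.18 (-0.06 to 0.42). It was at 40.6 and 61.7 CPM in lymphoid-primed-like cells, where it is 1 of the 10 leading genes of the cluster, and at 12.1 CPM or less in the other named types. Cox6a1, the general form, was at 392 and 344 CPM, a fold of -0.19. Cox7a1, another heart and muscle form, had 85 and 125 UMIs (1.26 and 1.62 CPM), a fold of 0.37 (-0.04 to 0.78), and Cox7a2, its general form, was at 604 and 493 CPM, a fold of -0.29. Cox8a, the only form of subunit 8 that the rule found, was at 1534 and 1337 CPM, a fold of -0.20.

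Other genes of the pathway mostly had smaller folds than the subunits. Over all cells, 14.2% of all genes that passed were lower by 1.2-fold and 13.2% were higher. The 22 genes of complex IV assembly that passed had 5 lower and 1 higher, with Pet100 at -0.41 and Cox20 at -0.40. Of 8 complex I assembly genes beside those named Nduf, 3 were lower, with Foxred1 at -0.38 and Timm21 at -0.28. The list of cytochrome c and other complex III genes includes Cyc1, cytochrome c1 of complex III, which the symbol rule leaves out, at -0.08. Of its 7 genes that passed, 1 was lower, a share near that of all genes. This was Uqcc2 at -0.32, and Bcs1l was at -0.22. Of 5 genes that assemble or regulate complex V, Atpif1, the inhibitor of ATP hydrolysis by the synthase, was at 1532 and 1033 CPM, a fold of -0.57, and Tmem70 was at 0.15.

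The genes that maintain and read mtDNA were also counted against the 14.2% of all genes that were lower. Of 9 genes of mtDNA replication, 5 were lower, none was higher and the median was -0.32, with Polg, the mtDNA polymerase, at 24.9 and 18.3 CPM, a fold of -0.44, and Polg2, its accessory subunit, at -0.43. Of 20 genes of mitochondrial transcription and RNA handling, 3 were lower and 1 was higher, a share near that of all genes, with a median of -0.10. Slirp, which stabilizes mtDNA messengers, was at 160 and 119 CPM, a fold of -0.43, and Mterf1a was at -0.35. Of 9 regulators of mitochondrial biogenesis none passed 1.2-fold, with Gabpb1 at 0.25 and Gabpa at -0.23, the subunits of GABP.

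Of the 4 remaining lists, redox defence had a larger share of lower genes than the 14.2% of all genes, and the other 3 had shares near it. Of 17 genes of the tricarboxylic acid cycle, 3 were lower, with Fh1 at -0.36 and Pdha1 at -0.33. Of 26 genes of protein import 5 were lower and 1 was higher, with Tomm7 at -0.45 and Tomm40l at -0.41. Of 12 genes of redox defence 4 were lower and 1 was higher, with Prdx5 at -0.44 and Glrx5 at -0.42. Of 12 genes of mitophagy 2 were lower and 1 was higher, with Optn, a mitophagy receptor that is also among the leading genes of the early erythroid-megakaryocyte-like cluster, at 58.8 and 16.3 CPM, a fold of -1.85, and Pink1 at -0.35.

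The genes outside the rule most like the nuclear subunits were found by Pearson's r of log2 CPM with the mean of the nuclear subunits, over 20 sums (10 types in each group). They were Pdcd5 (0.98), Cct8 (0.98), Cops6 (0.98), Micos10 (0.97) and Sf3b5 (0.97), where the median subunit gene had 0.92 with its own mean. The 20 sums share libraries and cell types, so these values are a description.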

How the data were processed

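Host marrow progenitors were profiled as single cells. The tools named per the submitters' processing notes are Cell Ranger (version 4) and Seurat (version 4.0.1), with mm10 as the build; other settings are not given in the sources used here. The authors deposited unnormalized UMI counts in a matrix of genes by cells, whose sums equal the deposited totals in 100% of cells. The authors' deposited cell table also gives map coordinates, which are scores without a unit and were used only for clustering.

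The members, the lists and the alternatives were chosen with earlier results of these data known. Cells were clustered by the Leiden method (igraph 0.11.9) on the authors' map, with 30 neighbours and a resolution of 0.3. A cluster was named "X-like" after the list of markers most enriched in it (mean log2 ratio, 10 CPM added), if that was at least 0.5, at least 3 of its markers were detected in 10% of the cells and no other list had more of the 10 leading genes. Cluster 11 met no list's rule and stayed unnamed. T and NK cell-like cells (21 and 32 cells) were not compared, since at least 30 cells per group were required. No doublet caller was run, and an alternative left out the 5% of cells with the most UMIs.

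UMIs were summed per group, and per type and group, and scaled by TMM as in edgeR 4.0.16, recomputed in Python 3.11.15 and checked against edgeR and against the size factors of DESeq2 1.42.0. The scripts were tested on simulated data. Log2 folds are tumor environment over PBS control, with exact conditional binomial intervals. Shares of cells have Clopper-Pearson intervals and changes of the ratio Woolf intervals. The tests planned for separate samples were not possible, because the cells carry no sample number.

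Named genes were the 13 mtDNA genes, the 2 highest and 3 lowest folds of each class of nuclear genes, the 4 highest and 6 lowest nuclear folds in HSC-like cells, genes with isoforms or close paralogs, and up to 2 genes of each other list; 1 gene that this rule names is not reported here. Atp5j is named for its promoter, and was chosen after its values were seen. Genes of the mitochondrial ribosome were not analysed here. Alternatives were other scalings, no filter, finer clusters at a resolution of 0.6, gates and subsets of cells, and other weights. The planned HSC gate (at least 4 HSC marker UMIs and fewer than 4 of every other list) kept 0 control cells and 29 tumor environment cells, and a gate on 7 genes was added after the data were seen.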

Additional observations from a re-analysis of the deposited data

Results flagged for a closer look

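Cluster 11 went against the direction of all cells. It held 169 control and 134 tumor environment cells with a median of 4337 UMIs, was led by Igkc and globin genes, and stayed unnamed. Its summed mtDNA log2 fold was -0.41, where all cells had 0.49, and its summed nuclear subunit fold was 0.52, where all cells had -0.27. By complex, the nuclear folds in cluster 11 were 0.38 for complex I, 0.62 for complex II, 0.69 for complex III, 0.33 for complex IV and 0.76 for complex V. In its control cells the median mtDNA share was 8.14% and 41 of 169 cells exceeded 10%, and in its tumor environment cells the median was 5.41%. The part of depth in this was not tested. Of the 79 nuclear subunit genes that passed the filter there, 65 were higher by 1.2-fold, where 38.1% of all genes that passed were higher.

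Complex II went the other way from its summed fold over all cells (-0.04) in 4 named types as well. These are the named types above 0 whose interval excludes 0. It was 0.28 in megakaryocyte-like, 0.21 in monocyte progenitor-like, 0.17 in neutrophil progenitor-like and 0.13 in early erythroid-megakaryocyte-like cells. It was also above 0, with an interval across 0, in lymphoid-primed-like (0.07) and early granulocyte-monocyte progenitor-like cells (0.03). The nuclear subunits of complex III had a fold of 0.091 in megakaryocyte-like cells, where all cells had -0.19. With 1 pooled sample per group, none of these differences between cell types was tested.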

How the results depend on the processing

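No paired analysis was possible because the cells carry no replicate number, and leaving out replicates was not possible for the same reason. No alternative reversed a result. Among the alternatives, the share of all genes lower by 1.2-fold was counted only for cluster 1 alone. The planned HSC gate kept no control cell and gave no value. Of the summed mtDNA fold over all cells (0.49), the ratio change (0.77), the nuclear median (-0.25) and the number of nuclear genes lower by 1.2-fold (39), these alternatives moved: scaling by the UMIs outside the mtDNA genes gave 0.55, a nuclear median of -0.19 and 25 genes; leaving out cells over 10% mtDNA gave 0.50 and a ratio change of 0.78; leaving out the 5% of cells with the most UMIs gave 0.56 and 0.83; leaving out cells with a UMI of Mki67 or Top2a gave 0.80 and 1.06. Equal weight of every cluster gave a nuclear median of -0.14, 21 genes and a ratio change of 0.66. Added after seeing the data, leaving out cluster 11 gave 0.51 and 0.79, and weighting each cell equally gave 0.60, -0.19, 25 genes and 0.79. Without the filter on low levels 2 nuclear genes were higher, not 1. In HSC-like cells (mtDNA fold 0.71, nuclear median -0.29, 47 genes lower, 1 higher), scaling by the UMIs outside the mtDNA genes gave 0.78 and 31 genes, and leaving out cells with a UMI of Mki67 or Top2a gave 0.82, -0.20 and 31 genes. Added after seeing the data, cluster 1 alone gave 0.69 and 2 genes higher, and the 7-gene gate gave 0.55, -0.17 and 22 genes. Over the alternatives, Cox4i2 ranged from 1.81 to 2.97 over all cells, and Ndufa4 in HSC-like cells from -1.003 to -0.81. mt-Nd6 ranged from -0.97 to -0.53 over all cells. The DESeq2 size factors, the barcode, globin and depth alternatives moved none of these values beyond counting error. Cox4i2, Cox6a2 and Cox7a1 rest on few UMIs per type, which limits their precision.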
